A study of Mus musculus with 16 samples.

Results

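Most mitochondrial proteins are made in the cytosol and must cross 1 or both mitochondrial membranes, and the genes described here encode the machinery that carries them across. They were chosen by symbol: every gene whose symbol begins with Timm or Tomm followed by a digit, together with Pam16, Dnajc15, Dnajc19, Samm50, Mtx1, Mtx2, Mtx3, Chchd4, Gfer, Pmpca and Pmpcb. The rule found 36 genes among the 19108 listed for every library, and 34 of them had enough counts to be tested. Timm8a2 held 1 count in all libraries together and the antisense transcript Tomm6os held 101, so both were left out of the tests.

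Expression was measured by RNA sequencing in quadriceps muscle of 16 C57BL/6 mice aged 6 months, in 4 groups of 4 animals. Transgenic mice of the genotype ANT1(Tg)/+ (Tg), 4 females and 4 males, carry an additional Ant1 gene and overexpress it. Wild-type mice (WT), again 4 females and 4 males, were kept on the same regular chow and were littermates of the transgenic mice where possible. Ant1, now named Slc25a4, encodes the carrier that exchanges ADP and ATP across the inner mitochondrial membrane and is itself imported through the TIM22 route. The promoter that drives the transgene is not given in the sources used here.

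Precursor proteins enter through the TOM complex of the outer membrane, whose receptors hand them to a barrel-shaped channel. Proteins with a cleavable presequence then pass through TIM23 and are pulled in by a motor built around the mitochondrial Hsp70, and the presequence is cut off by the matrix processing peptidase. Carrier proteins such as Slc25a4 are instead escorted by small TIM chaperones of the intermembrane space to TIM22, which inserts them into the inner membrane. The SAM complex places barrel proteins in the outer membrane, and the MIA pathway traps cysteine-rich proteins in the intermembrane space by forming disulfide bonds. In skeletal muscle this machinery supplies the dense mitochondrial network that surrounds the contractile fibres.

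Values are counts per 1000000 (CPM), which divide a gene's count by the scaled total of its library, so that they compare libraries but not genes of different length. A change is given as the log2 fold change of Tg over WT, with its standard error (SE), from edgeR's quasi-likelihood test on all 13666 genes with enough counts. Calls were made where the p-value, adjusted by Benjamini-Hochberg over all those genes, was under 0.05. The main contrast averages the genotype effect over the sexes. Libraries held 17435895 to 30680324 counts. Slc25a4 checked the labels, with 8507, 9588 and 11044 CPM as the lowest, median and highest of 8 Tg libraries, against 2792, 3561 and 3919 CPM in 8 WT libraries, and a log2 fold change of 1.53 (adjusted p = 4.89e-10, SE 0.077). In bulk muscle, fewer cells of a type and less RNA per cell cannot be told apart.

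Of the 34 tested import genes, 15 (44.1%) were called in the contrast averaged over the sexes, against 30.4% of all tested genes. Of these, 12 (35.3%) were higher in Tg muscle, against 17.2% of all tested genes, and 3 (8.82%) were lower, against 13.3%. The median log2 fold change of the 34 genes was 0.10, and that of all tested genes was -0.012. The largest increases were in Timm8a1 (1.81-fold) and Timm10 (1.62-fold), which encode small TIM chaperones, and in Mtx2 (1.43-fold), a subunit of SAM. The lowest value was that of Timm29, a subunit of TIM22 (0.711-fold). Of these 4 genes, picked by their values, 3 belong to TIM22 and the small TIMs, which hold 8 of the 34 tested genes. Whether such genes gather in that group was not tested.

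Most of the changes were small. Of the 15 called genes, 3 had a log2 fold change of at least 0.5 in size (Timm8a1, Timm10 and Mtx2). The CPM of the 36 genes summed to 1735 ± 58.6 in Tg and 1688 ± 85.5 in WT libraries (SD, n = 8 each), and the sums of the groups overlapped, at 1647 to 1822 in Tg and 1550 to 1793 in WT libraries. Among the 19 genes that were not called, no log2 fold change exceeded 0.17 in size, and their 95% intervals together ran from -0.25 to 0.35. The coefficient of variation within a group had a median of 7.82% over the genes, with a range of 4.81% to 16.7%.

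By complex, 3 of the 8 TOM genes (37.5%) were called, all higher in Tg muscle, as was the cytosolic partner Tomm34. Over all tested genes 30.4% were called, 17.2% higher and 13.3% lower, and no complex was tested against these shares. In TIM23 and its motor, 2 of 9 were higher (22.2%) and 1 was lower (11.1%). In TIM22 and the small TIMs, 3 of 8 tested genes were higher (37.5%) and 2 lower (25.0%). In SAM, 2 of 4 were higher, in MIA 1 of 2 was higher, and neither subunit of the processing peptidase was called. Without the 3 WT libraries rich in adipocyte transcripts described below, 9 genes were higher and 3 lower, and all 12 were among the 15. That run called 29.8% of all tested genes, and it has fewer WT libraries in both sexes. With the adipocyte marker level as a covariate in all 16 libraries, the same 15 genes were called, 12 higher and 3 lower. That fit called 33.1% of all tested genes. WT female 3 and Tg male 2 each lay at an end of their group for 24 of the 34 genes. Without both, an alternative chosen after seeing the data, 12 genes were higher and 4 lower, and 14 of these 16 were among the 15.

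**Figure D1:**
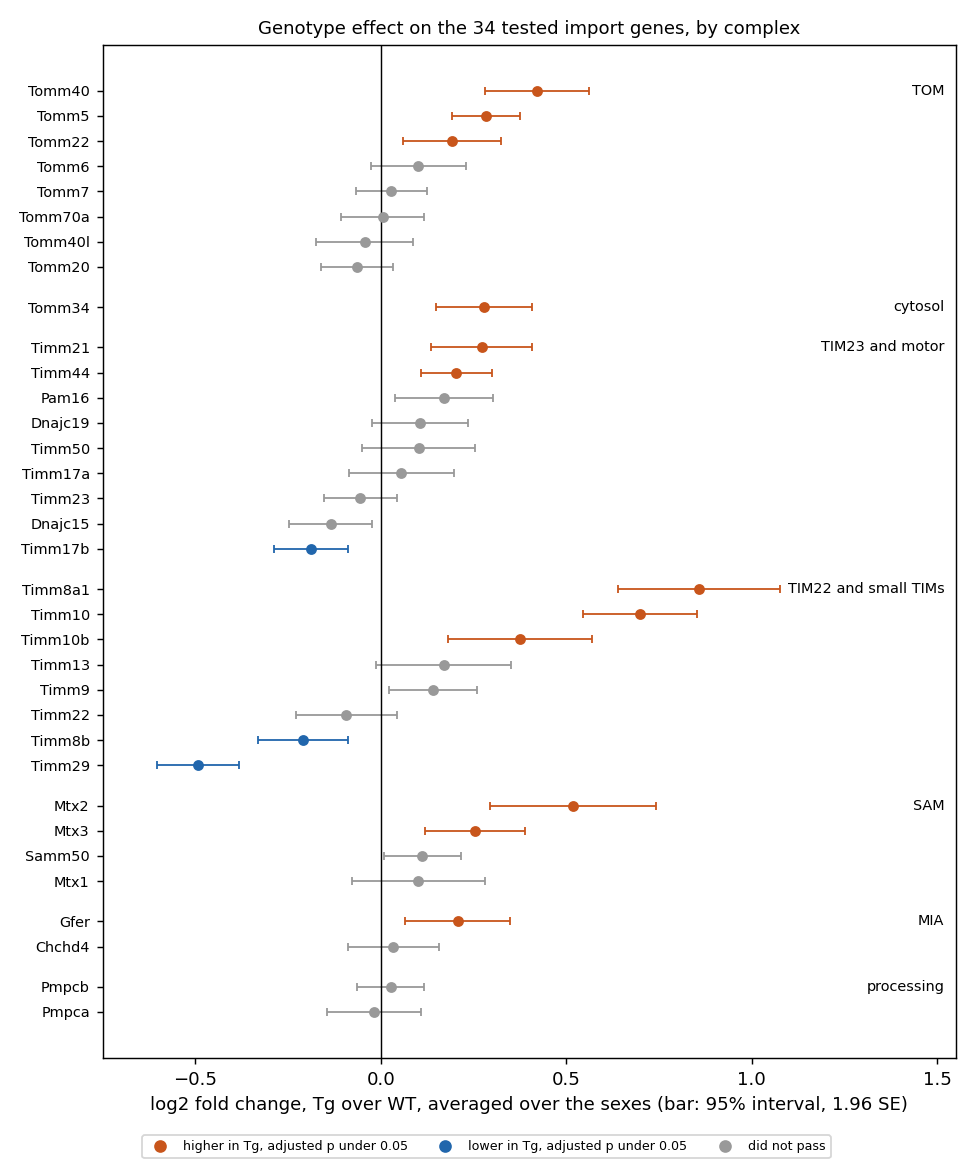
Log2 fold change of Tg over WT, averaged over the sexes, for the 34 tested import genes grouped by complex. Points are edgeR estimates and bars are 95% intervals, coloured by whether the gene was called higher, called lower or not called. Timm8a1 lies farthest to the right at 0.86 and Timm29 farthest to the left at -0.49.

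The sequence just upstream of the first annotated exon is shown for the 5 genes called higher with the smallest adjusted p, as the increases on which the results turn. All 5 are from RefSeq, build GRCm38.p6, written 5′ to 3′ on the strand of the gene, and capitals mark the letters CCGGAAGT. Each stretch ends before the GENCODE or RefSeq start, whichever lies farther upstream. The sequence at hand reached 250 bases before the RefSeq start, so Timm8a1, whose GENCODE start lies farther upstream, is shorter.
Timm8a1 chrX:134541866-134541920 (minus strand): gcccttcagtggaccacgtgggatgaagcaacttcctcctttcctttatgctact
Timm10 chr2:84826897-84826996 (plus strand): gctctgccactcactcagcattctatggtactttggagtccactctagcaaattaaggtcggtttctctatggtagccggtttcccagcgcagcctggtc
Mtx2 chr2:74825703-74825802 (plus strand): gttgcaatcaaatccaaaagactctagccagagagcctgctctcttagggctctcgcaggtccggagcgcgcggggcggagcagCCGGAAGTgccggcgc
Tomm40 chr7:19715439-19715538 (minus strand): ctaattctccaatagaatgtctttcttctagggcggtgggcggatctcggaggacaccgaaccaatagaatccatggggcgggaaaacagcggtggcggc
Tomm5 chr4:45108115-45108214 (minus strand): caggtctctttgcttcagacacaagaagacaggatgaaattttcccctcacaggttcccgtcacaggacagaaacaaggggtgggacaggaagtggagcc

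RefSeq promoters, from 250 bases before to 50 after each start, matched 33 of the 36 genes, with 35 promoters in all, and none was at hand for Timm21, Tomm40l and Tomm7. Both strands were searched for 3 motifs. The core of the C/EBP-ATF response element, TGATGNAA, was in 0 of the 35 promoters, against 3.97% of all 32851 promoters in the table. The palindrome of the nuclear respiratory factor NRF1, GCGC followed by any 2 bases and GCGC again, was in 4 (11.43%), those of Chchd4, Tomm20, Timm8b and Pam16, against 6.23%. The core of sites for ETS factors such as GABP, CCGGAAGT, was in 9 (25.71%), against 3.89%, and this motif was added after the data were seen. The shares over all promoters were not limited to genes tested here, and no difference between shares was tested. The 9 genes that held it were Mtx2, Timm10, Timm10b, Timm29, Mtx3, Pmpcb, Timm23, Tomm70a and Timm8a2. Of the 8 that were tested, 5 were called, Timm29 lower and the other 4 higher, where 15 of the 34 tested import genes and 30.4% of all tested genes were called. A match in Mtx2 is the one in capitals above, those of Timm10 and Timm10b lie after the start and so outside any stretch shown, and a match describes letters and not a bound site.

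Tomm40, the channel of the outer membrane, had the largest increase of the TOM genes (ENSMUSG00000002984.17, chr7:19701313-19715438, minus strand, build mm10, GENCODE M21, as for all positions below). It had 32.6, 32.2, 30.7 and 33.3 CPM in the 4 Tg females, against 24.3, 24.4, 17.9 and 26.0 CPM in the 4 WT females. Males had 32.9, 36.8, 29.2 and 31.9 CPM in the 4 Tg males, against 24.4, 27.8, 25.1 and 24.2 CPM in the 4 WT males. Every Tg library lay above every WT library, and WT female 3 was the lowest of all 16. The log2 fold change was 0.42 (adjusted p = 0.000317, SE 0.072), with 0.48 in females and 0.37 in males.

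Tomm5 encodes a small subunit that helps hold the TOM channel together (ENSMUSG00000078713.8, chr4:45105208-45108114, minus strand). It measured 30.2, 25.8, 29.3 and 28.7 CPM in the 4 Tg females, against 22.9, 22.2, 24.1 and 24.5 CPM in the 4 WT females. The values of males were 31.1, 28.6, 28.2 and 27.0 CPM in the 4 Tg males, against 24.2, 23.2, 23.5 and 23.3 CPM in the 4 WT males. The groups did not overlap, and this gene varied least among replicates of all 34. Its log2 fold change was 0.28 (adjusted p = 0.000237, SE 0.047), about the same in females (0.28) and males (0.29).

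Tomm22 encodes the central receptor of TOM, which links the other receptors to the channel. Its lowest, median and highest values were 35.2, 46.5 and 52.9 CPM in Tg libraries, against 34.2, 39.8 and 42.4 CPM in WT libraries, and Tg male 2 lay below 7 of the 8 WT libraries. The log2 fold change of 0.19 (adjusted p = 0.0385, SE 0.067) was near the threshold, and the call was lost in 16 of 25 alternative analyses, with adjusted p up to 0.116. Leaving out each library in turn gave 0.17 to 0.23, and the gene was still called only without Tg female 4, Tg male 2 or WT female 4.

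The other TOM genes did not pass. Tomm20 and Tomm70a, the receptors for presequence and carrier precursors, had log2 fold changes of -0.064 (95% interval -0.16 to 0.033) and 0.0053 (-0.11 to 0.12). Tomm7, a small subunit and in WT muscle the most abundant TOM transcript per kilobase, had 46.1, 50.8 and 54.5 CPM as its lowest, median and highest value in Tg libraries, against 46.2, 47.9 and 55.0 CPM in WT libraries, so the groups overlapped almost wholly. Its log2 fold change was 0.028 (adjusted p = 0.698, SE 0.049), and ranged from 0.00083 to 0.052 over the alternative analyses. Tomm6, another small subunit, had a value of 0.10 (adjusted p = 0.263), and Tomm40l, a copy of the channel gene, one of -0.044 (adjusted p = 0.655). Of the exon bases of Tomm6, 76.0% are shared with a readthrough gene on the same strand.

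Tomm34 encodes a cytosolic cochaperone that binds Hsp70, Hsp90 and precursors before they reach TOM. Its lowest, median and highest values were 15.7, 16.1 and 17.4 CPM in Tg libraries, against 11.6, 12.97 and 16.4 CPM in WT libraries. All 8 Tg libraries exceeded the WT median, but WT female 4 reached into the Tg range. On the log2 scale the change was 0.28 (adjusted p = 0.00427, SE 0.066). Without the 3 adipocyte-rich WT libraries it was 0.20 and was no longer called (adjusted p = 0.0728).

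**Figure D2:**
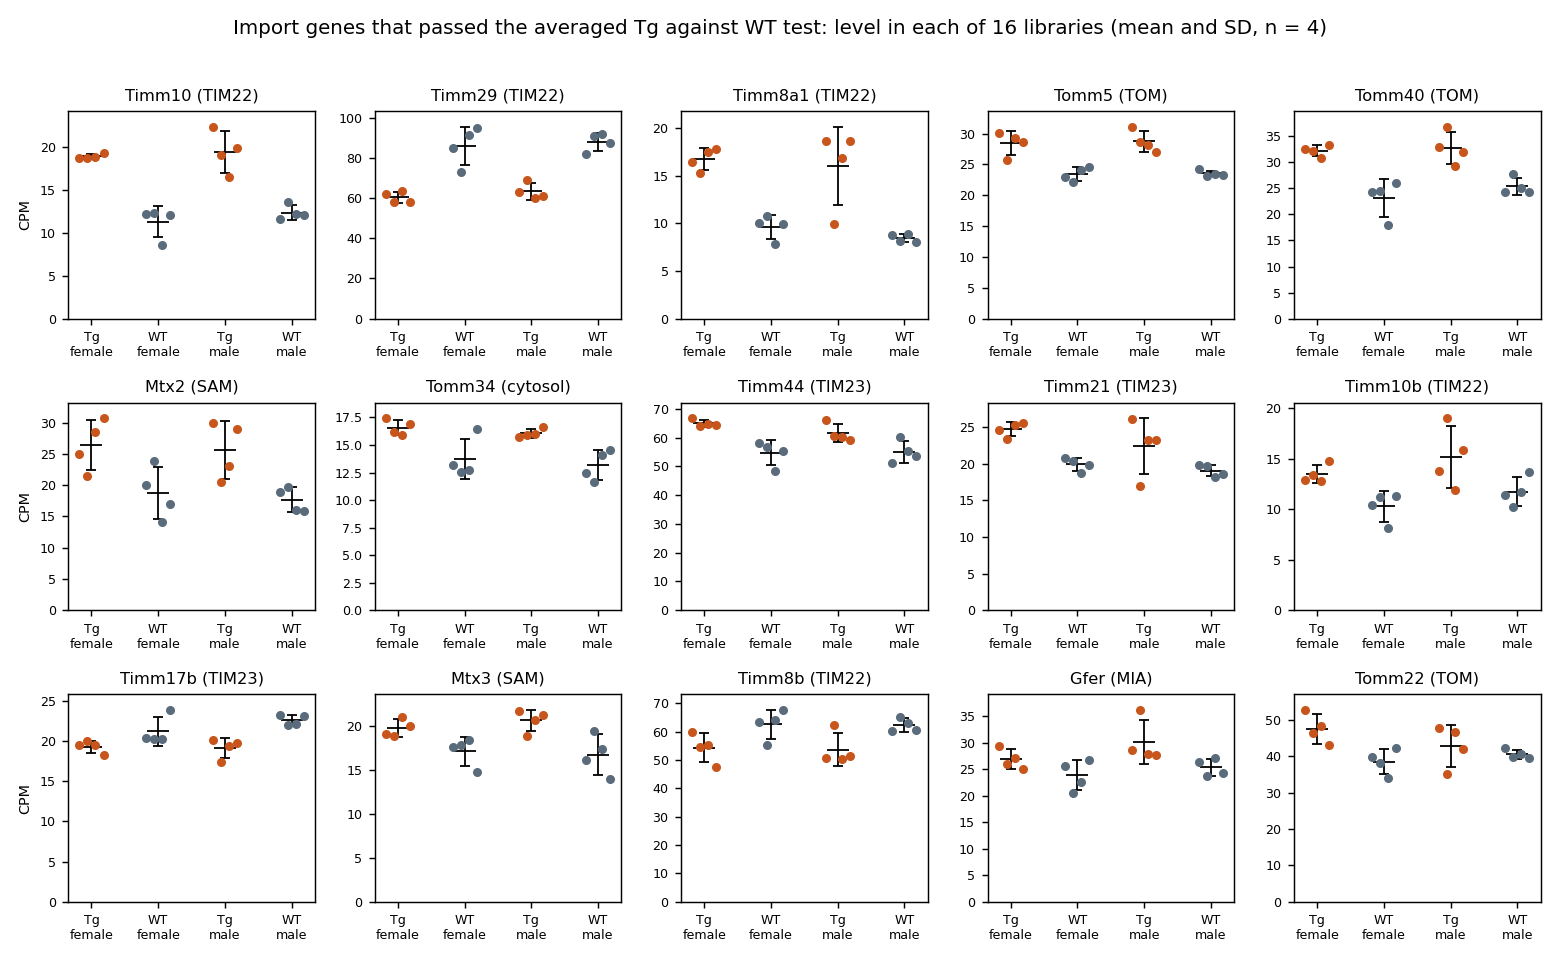
CPM of the 15 called import genes in each of the 16 libraries, with the 4 groups along the horizontal axis, points for libraries, and lines for the group mean and SD (n = 4). The vertical axes start at 0 and differ between genes. Timm10 lies at 16.5 to 22.4 CPM in Tg libraries, above all WT libraries at 8.65 to 13.6 CPM.

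In TIM23, Timm44 and Timm21 were higher in Tg muscle and Timm17b was lower. Timm44, which tethers the mitochondrial Hsp70 to the channel, had 59.2, 64.3 and 66.8 CPM as its lowest, median and highest values in Tg libraries, against 48.3, 55.5 and 60.2 CPM in WT libraries. The groups overlapped by WT male 2, which lay above Tg male 3 and Tg male 4. The change, as log2 of Tg over WT, was 0.20 (adjusted p = 0.00465, SE 0.049), and in each sex alone it was 0.25 in females and 0.16 in males.

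Timm21, a subunit that connects TIM23 with TOM and the respiratory chain, gave 17.02, 24.0 and 26.1 CPM in Tg libraries and 18.2, 19.7 and 20.7 CPM in WT libraries, again as lowest, median and highest. In 7 of the 8 Tg libraries it exceeded every WT library, while Tg male 2 was the lowest of all 16. As log2 of Tg over WT this was 0.27 (adjusted p = 0.00704, SE 0.070).

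Timm17b, one of the alternative forms of the channel partner of Timm23, was lower in Tg muscle. It measured 19.5, 19.97, 19.4 and 18.2 CPM in Tg females, against 20.3, 20.3, 20.2 and 23.9 CPM in WT females. In males it measured 20.1, 17.4, 19.4 and 19.8 CPM in Tg, against 23.3, 22.01, 22.1 and 23.1 CPM in WT mice. Every Tg library lay below every WT library, though Tg male 1 and WT female 3 were only a fraction of 1 CPM apart. This gave a log2 fold change of -0.19 (adjusted p = 0.00953, SE 0.050).

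Timm23, the channel gene itself, was not called. It gave 220.5, 209.6, 208 and 193 CPM in Tg females, against 189, 175, 201 and 215 CPM in WT females, and these overlapped. In males it gave 202, 204, 190.1 and 204 CPM in Tg, against 239, 229, 233 and 218 CPM in WT mice, without overlap. The averaged log2 fold change was -0.055 (adjusted p = 0.440, SE 0.050), made up of 0.092 in females and -0.20 (adjusted p = 0.0586, SE 0.070) in males. Without WT female 4 the averaged value was -0.029, and without the 3 adipocyte-rich WT libraries it was -0.11 (adjusted p = 0.134). With the adipocyte covariate in all 16 libraries it was -0.056 (adjusted p = 0.412). The difference between the sexes, at -0.29, was not called (adjusted p = 0.509).

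The remaining TIM23 genes were not called either. They were Timm17a at 0.055, Timm50, the presequence receptor of TIM23, at 0.10, and the motor's J-domain proteins Dnajc19 at 0.11 and Dnajc15 at -0.13, all as log2 fold changes. Pam16, the J-like partner that holds the motor's J-proteins in check, came closest to the threshold at 0.17 (adjusted p = 0.0667, SE 0.067). Its transcript was above the WT median in all 8 Tg libraries and above every WT library in 2.

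Carrier proteins travel through TIM22 and the small TIMs, and this group held both the highest and the lowest fold changes among the import genes. Timm10 encodes a subunit of the Timm9-Timm10 chaperone, a ring that shields carriers in the intermembrane space (ENSMUSG00000027076.10, chr2:84826997-84830213, plus strand). Females had 18.7, 18.8, 18.8 and 19.3 CPM in Tg, against 12.2, 12.3, 8.65 and 12.1 CPM in WT mice. Males had 22.4, 19.1, 16.5 and 19.9 CPM in Tg, against 11.6, 13.6, 12.2 and 12.1 CPM in WT mice. Every Tg library was above every WT library, and the 4 Tg females were closely alike while WT female 3 stood below the other WT females. Its log2 fold change was 0.70 (adjusted p = 6.13e-06, SE 0.079), at 0.74 in females and 0.66 in males. Timm9, its partner in the ring, did not pass, at 0.14 (adjusted p = 0.0938, SE 0.061).

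Timm8a1 encodes the mouse counterpart of human TIMM8A and forms a second kind of chaperone ring with Timm13 (ENSMUSG00000048007.4, chrX:134537256-134541865, minus strand). Tg females had 16.5, 15.3, 17.5 and 17.8 CPM, against 9.997, 10.8, 7.84 and 9.93 CPM in WT females. Tg males had 18.7, 9.95, 16.9 and 18.6 CPM, against 8.73, 8.19, 8.93 and 8.02 CPM in WT males. Tg male 2 stood far below the other Tg males, and below WT female 1 and WT female 2, but above all WT males. The other 7 Tg libraries were above every WT library. The log2 fold change was 0.86 (adjusted p = 2.54e-05, SE 0.11), and leaving out each library in turn gave 0.82 to 0.95. Its transcript is identical over 612 bases to the pseudogene Gm9797, which is not among the symbols of the files. Timm13 did not pass, at 0.17 (adjusted p = 0.184, SE 0.093).

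Timm8b, the other Timm8 form, was lower in Tg muscle, and its transcript is the more abundant of both per kilobase. Its values were 59.8, 54.7, 55.1 and 47.4 CPM in Tg females, against 63.4, 55.3, 64.1 and 67.5 CPM in WT females, and 50.8, 62.2, 50.3 and 51.4 CPM in Tg males, against 60.2, 65.2, 63.2 and 60.5 CPM in WT males. The groups overlapped through WT female 2, the lowest WT library, and Tg male 2, the highest Tg library. On the log2 scale the change was -0.21 (adjusted p = 0.0166, SE 0.062). Its exons share 15.6% of their bases with Nkapd1 on the opposite strand.

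Timm10b, a small TIM attached to the TIM22 complex itself, had 11.9, 13.6 and 19.0 CPM as lowest, median and highest in Tg libraries, against 8.11, 11.3 and 13.6 CPM in WT libraries. All 8 Tg libraries were above the WT median and 4 were above every WT library, with Tg male 2 the highest. The change, as log2 of Tg over WT, was 0.38 (adjusted p = 0.00838, SE 0.10).

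Timm29 encodes a TIM22 subunit that, in human cells, joins TIM22 to TOM (ENSMUSG00000048429.10, chr9:21592722-21595970, plus strand). It fell in Tg muscle, with 61.9, 58.2, 63.3 and 58.0 CPM in the 4 Tg females, against 84.9, 73.0, 91.2 and 94.9 CPM in the 4 WT females. Males had 63.2, 69.2, 59.9 and 61.1 CPM in the 4 Tg males, against 82.0, 91.1, 91.8 and 87.5 CPM in the 4 WT males. Every Tg library was below every WT library, and the closest pair was Tg male 2 and WT female 2. This gave a log2 fold change of -0.49 (adjusted p = 6.93e-06, SE 0.056), with -0.51 in females and -0.48 in males. Timm22, the insertion channel of the complex, had a value of -0.092 (95% interval -0.23 to 0.044) and was not called.

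In SAM, the metaxins Mtx2 and Mtx3 rose. Mtx2, which sits on the cytosolic side of the outer membrane (ENSMUSG00000027099.9, chr2:74825803-74878431, plus strand), had 25.0, 21.5, 28.5 and 30.7 CPM in the 4 Tg females, against 20.03, 23.8, 14.1 and 16.9 CPM in the 4 WT females. In males it had 29.9, 20.5, 23.1 and 29.0 CPM in the 4 Tg males, against 18.9, 19.8, 16.0 and 15.9 CPM in the 4 WT males. The males did not overlap, whereas WT female 2 lay above Tg female 2 in females, and of all 34 genes Mtx2 varied most among replicates. edgeR's log2 fold change was 0.52 (adjusted p = 0.00250, SE 0.11).

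Mtx3 had 18.8, 20.3 and 21.7 CPM as lowest, median and highest in Tg libraries, against 13.9, 17.5 and 19.5 CPM in WT libraries, and 5 of 8 Tg libraries lay above every WT library. Its log2 fold change was 0.25 (adjusted p = 0.0103, SE 0.069). Mtx1 did not pass, at 0.10 (95% interval -0.078 to 0.28). Samm50, the barrel that forms the core of SAM, had 179, 193 and 206 CPM in Tg and 149, 183 and 189 CPM in WT libraries, and its log2 fold change of 0.11 (adjusted p = 0.120, SE 0.052) did not pass. Without WT female 4, Samm50 was called at 0.14 (adjusted p = 0.0425).

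Of the MIA pair, Chchd4, the oxidoreductase that inserts disulfide bonds, had a log2 fold change of 0.034 (adjusted p = 0.716, SE 0.063). Gfer, the enzyme that reoxidises Chchd4, had 24.9, 27.7 and 36.2 CPM as its lowest, median and highest in Tg libraries, against 20.4, 24.9 and 27.0 CPM in WT libraries. All 8 Tg libraries were above the WT median, with Tg male 2 the highest. The call at 0.21 (adjusted p = 0.0381, SE 0.072) was lost in 12 of 25 alternative analyses, with adjusted p up to 0.137. Leaving out any 1 of 8 libraries (Tg females 1 and 3, Tg male 2, WT females 2 and 3, and males 1, 2 and 4 of the WT group) lost it, with values of 0.16 to 0.21. A stretch of 573 bases of the Gfer transcript is 99.8% identical to annotated Dst sequence.

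Pmpca and Pmpcb, the subunits of the peptidase that removes presequences, did not pass. Pmpca had 181, 196 and 208 CPM as lowest, median and highest in Tg libraries, against 163, 204 and 227 CPM in WT libraries, so the Tg libraries lay within the WT range. Its log2 fold change was -0.017 (adjusted p = 0.866, SE 0.065), with a 95% interval of -0.14 to 0.11, and Pmpcb had 0.027 (adjusted p = 0.695, SE 0.046). Without Tg female 4 the sign of the Pmpca value turned, to 0.0025, and without WT female 4 it was 0.019. Without the 3 adipocyte-rich WT libraries it was -0.14 (adjusted p = 0.0783).

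Per kilobase of the principal annotated transcript, WT levels spanned a 67.1-fold range. Timm23 was highest at 174 CPM per kilobase in Tg and 181 in WT muscle, followed by Timm8b at 104 and 120.5 and Pmpca at 62.2 and 63.0. The order depends on the length used. Per kilobase of all annotated exon bases, Timm8b had 120.5 and Timm23 119 in WT muscle. Mtx3 was lowest at 3.22 and 2.70, with Timm10b next at 4.36 and 3.36. The genes with the largest increases began low or in the middle of this order. Timm8a1 had 11.5 CPM per kilobase in Tg and 6.37 in WT muscle, and Timm10 had 27.8 and 17.1. For 10 of the 36 genes, 4 of them called (Gfer, Timm8a1, Tomm22 and Tomm5), an annotated transcript elsewhere matches at 95% identity or more over at least 100 bases. Timm23 is also among the 10, and Gm10273 matches it at 99.9% over 1121 bases. How the counting treated such reads is not given in the sources used here.

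**Figure D3:**
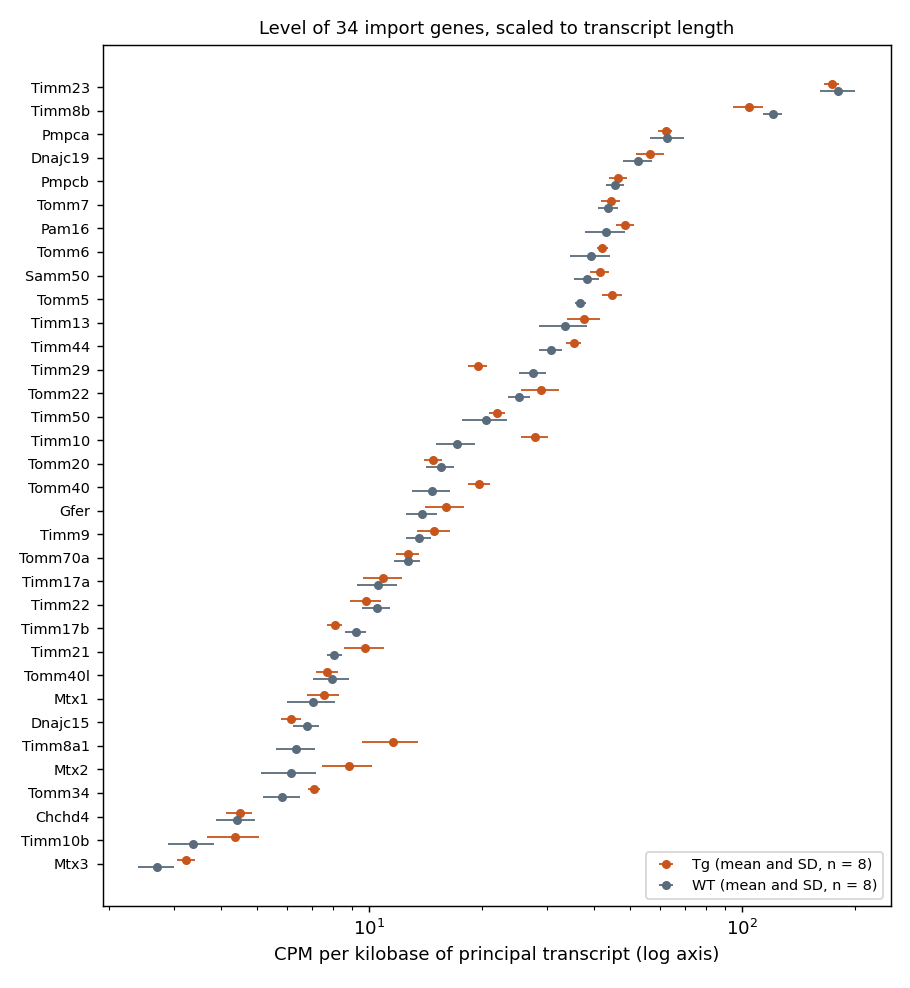
Mean level of the 34 tested import genes per kilobase of principal transcript, on a log axis, with bars for the SD of 8 Tg or 8 WT libraries. Genes run from the highest WT level, Timm23 at 181 CPM per kilobase, down to Mtx3 at 2.70.

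Of the 34 import genes, 3 (Timm10, Tomm40 and Tomm5) had all 8 Tg libraries above all 8 WT libraries, an order found in 5.23% of all tested genes. The opposite order held for 2 (Timm29 and Timm17b), against 2.69% of all tested genes.

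The sexes were next taken apart. In females, 9 of the 34 genes were called, against 17.7% of all tested genes, with 8 higher in Tg (10.1% of all tested genes) and 1 lower (7.57%). In males 9 were called, against 18.2% of all tested genes, with 7 higher (9.85%) and 2 lower (8.39%). The genes called in both sexes numbered 6, namely Timm10, Timm29, Timm8a1, Tomm5, Tomm40 and Mtx2, and 10.8% of all tested genes were called in both. The female count fell to 5 without Tg female 1 or without WT female 3, and the male count to 5 without WT male 1 or without WT male 4. With RLE size factors in place of TMM, 5 genes were higher and 3 lower in males.

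The sign of the effect was the same in both sexes for 28 of the 34 genes and opposite for 6. A test of the difference between the sexes called 0 of the 34 genes, against 0.00732% of all tested genes, which is 1 gene. At an unadjusted p under 0.05, 2 of the 34 differed between the sexes (Timm23 and Timm17a), against 7.43% of all tested genes. DESeq2 called 84 genes and limma-voom 1 gene in that test, and neither called an import gene. For Timm17a the effects were 0.24 in females and -0.12 in males, a difference of -0.36 (adjusted p = 0.609).

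**Figure D4:**
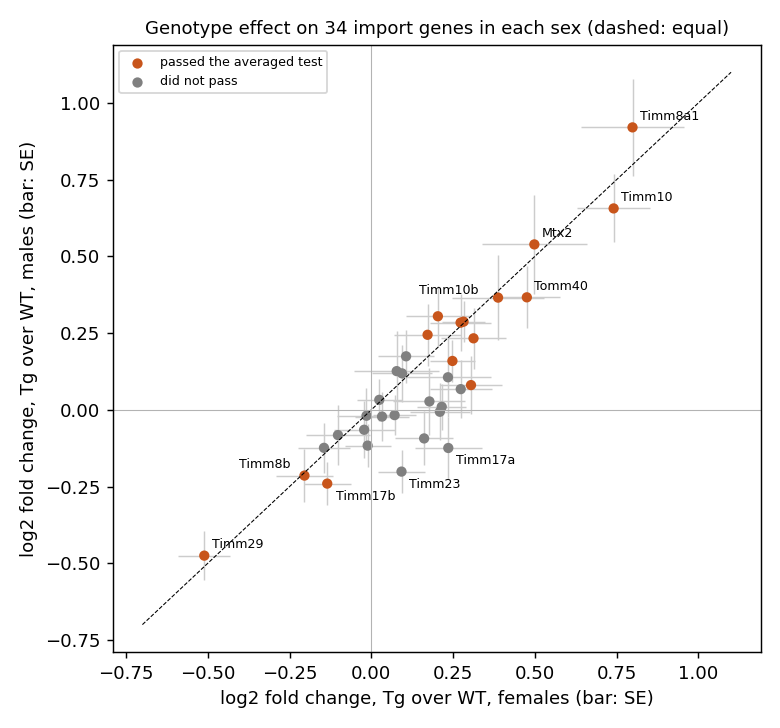
Log2 fold change of Tg over WT in females (horizontal axis) and males (vertical axis) for the 34 tested import genes, with bars for the SE and a dashed line where both are equal. Timm8a1, Timm10 and Mtx2 lie far up the line and Timm29 far down it, while Timm23 and Timm17a lie right of 0 and below 0.

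Several import genes exist as paralogous forms, and the ratio of both forms within a library does not depend on library scaling. The log2 ratio of counts was compared for 6 pairs by an exact two-sided permutation of genotype within each sex (4900 arrangements, smallest possible p = 0.000408), adjusted over the 6 pairs. Timm8a1 relative to Timm8b moved most, with a log2 ratio of -1.74 ± 0.40 in Tg and -2.79 ± 0.21 in WT libraries (SD, n = 8 each) and a difference of 1.05 (adjusted p = 0.00122) by the exact test. Its ranges were -2.64 to -1.42 in Tg and -3.03 to -2.36 in WT libraries, where Tg male 2 alone overlapped the WT range. As geometric means of counts, Timm8a1 stood at 0.300 of Timm8b in Tg muscle, against 0.145 in WT muscle.

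Tomm40l relative to Tomm40 had log2 ratios of 0.16 ± 0.15 in Tg and 0.63 ± 0.14 in WT libraries, with ranges of -0.16 to 0.36 in Tg and 0.42 to 0.81 in WT libraries that did not overlap. The difference was -0.46 (adjusted p = 0.00122) by the exact permutation test. Opposite-strand Nr1i3 covers 64.3% of the exon bases of Tomm40l but had at most 2 counts in any library. Timm17a relative to Timm17b gave 2.04 ± 0.14 in Tg and 1.80 ± 0.14 in WT libraries, and the groups overlapped. Its difference was 0.24 (adjusted p = 0.0131) by the exact test, at 0.36 in females and 0.11 in males.

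Both pairs of motor genes had lower ratios in Tg muscle. Dnajc15 relative to Dnajc19 had log2 ratios of 0.038 ± 0.15 in Tg and 0.28 ± 0.16 in WT libraries, a difference of -0.24 (adjusted p = 0.0162) by the exact test. Without the 3 adipocyte-rich WT libraries that difference was -0.13 (adjusted p = 0.169 by the exact test). Grpel2 relative to Grpel1, the exchange factors of the mitochondrial Hsp70, had -1.86 ± 0.18 in Tg and -1.63 ± 0.17 in WT libraries, a difference of -0.23 (adjusted p = 0.0162) by the exact test. By edgeR, Grpel1 was higher in Tg muscle, at 0.28 (adjusted p = 0.000764, SE 0.053), and Grpel2 was not called, at 0.066 (adjusted p = 0.537, SE 0.075). Mtx1 relative to Mtx3 had -0.73 ± 0.14 in Tg and -0.58 ± 0.33 in WT libraries, a difference of -0.15 (adjusted p = 0.262) by the exact test, which did not pass. Without WT female 3 it was -0.24 and without WT female 4 it was -0.078.

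**Figure D5:**
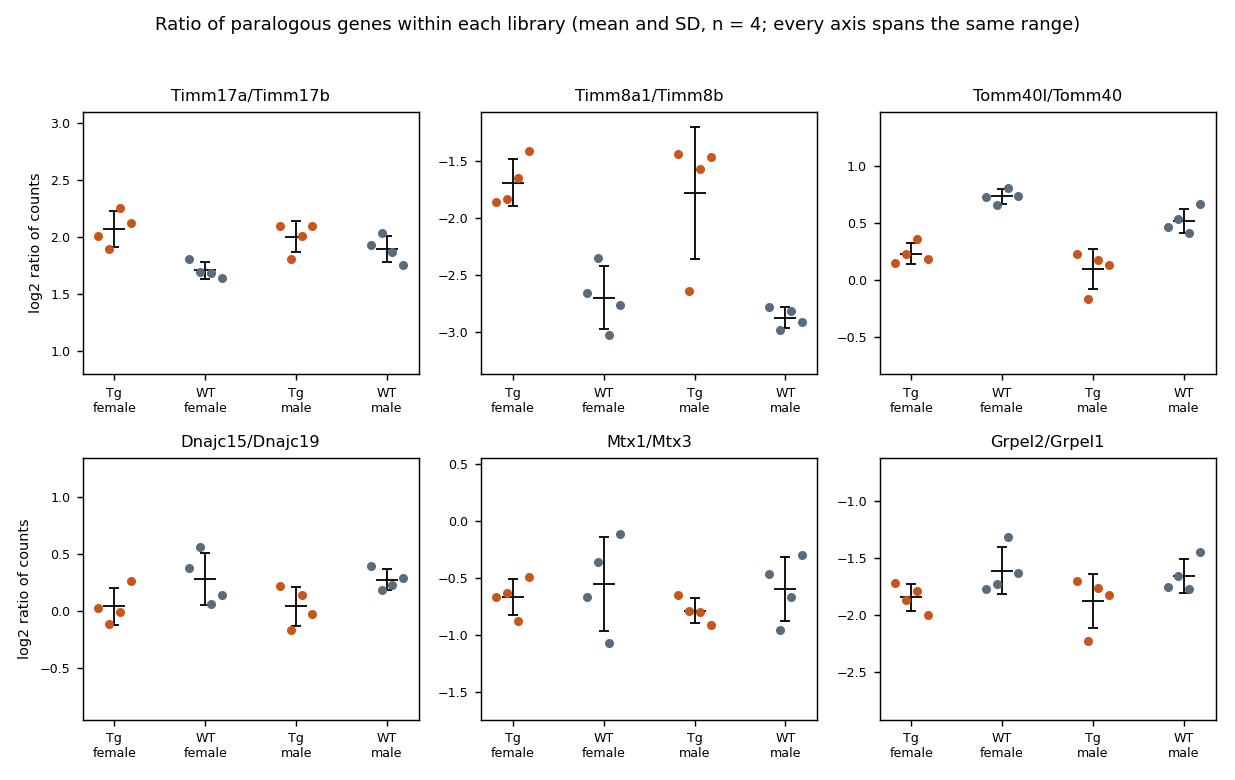
Log2 ratio of counts of 6 paralogous pairs within each of the 16 libraries, by group, with lines for the mean and SD (n = 4). Every vertical axis spans the same range, so heights can be compared. The groups are apart for Tomm40l/Tomm40, and for Timm8a1/Timm8b except in Tg male 2.

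Genes linked to import but outside the symbol rule were looked at in 3 lists. The first held 19 genes of the matrix and membranes, not all of them parts of the import machinery. Of these 19 genes, 9 were higher and 1 lower, against 17.2% and 13.3% of all tested genes, with a median log2 fold change of 0.16. Hspa9, the mitochondrial Hsp70 at the core of the import motor, averaged 1145 ± 93.5 CPM in Tg and 468 ± 26.6 CPM in WT libraries (SD, n = 8 each), a log2 fold change of 1.29 (adjusted p = 1.79e-10, SE 0.060). Its J-protein partner Dnaja3 averaged 190.4 ± 14.3 CPM in Tg and 119 ± 8.32 CPM in WT libraries, with 0.68 (adjusted p = 1.31e-07, SE 0.055). Pitrm1, which degrades cut presequences, had 0.31 (adjusted p = 0.000256, SE 0.051). Immp1l, a subunit of the inner membrane peptidase, was lower at -0.44 (adjusted p = 0.000400, SE 0.077). Immp2l, the other subunit of that peptidase in the list, was higher at 0.33 (adjusted p = 0.0280, SE 0.11).

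Of 15 cytosolic chaperones that deliver precursors, 6 were higher (40.0%) and 2 lower (13.3%), against 17.2% and 13.3% of all tested genes, with a median of 0.056. Btf3 and Naca, the subunits of the nascent polypeptide-associated complex at the ribosome, had 0.73 (adjusted p = 1.66e-08, SE 0.049) and 0.44 (adjusted p = 0.00278, SE 0.10). Without the 3 adipocyte-rich WT libraries Naca had 0.28 (adjusted p = 0.0325). Ubqln2, which holds membrane precursors in the cytosol, had 0.35 (adjusted p = 0.000721, SE 0.065). Of the other ubiquilins listed, Ubqln4 was lower at -0.23 (adjusted p = 0.00436, SE 0.054), and Ubqln1 was not called, at 0.069 (adjusted p = 0.302). Bag6, a chaperone for exposed membrane segments, had 0.34 (adjusted p = 0.000595, SE 0.062). Dnaja1, an Hsp70 cochaperone, was lower at -0.33 (adjusted p = 0.00326, SE 0.075) and was named after its value was seen. Of 20 proteins with twin CX9C motifs, the kind that MIA oxidises, 3 were higher (15%) and 2 lower (10%), against 17.2% and 13.3% of all tested genes, with a median of 0.0039. The higher ones were Chchd10, at 730.9 ± 116 CPM in Tg and 293 ± 77.3 CPM in WT libraries and 1.34 (adjusted p = 3.81e-07, SE 0.12), Coa4, at 0.67 (adjusted p = 0.000178, SE 0.11), and Chchd5, at 0.49 (adjusted p = 6.98e-05, SE 0.071). Coa5 and Uqcrh were lower, at -0.21 (adjusted p = 0.00168, SE 0.044) and -0.22 (adjusted p = 0.00776, SE 0.057).

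Cell type markers were measured in the same libraries, and the ranges of their sums in the genotypes overlapped for every list. The counts of called markers stand beside 17.2% of all tested genes called higher and 13.3% called lower. Muscle fibre markers, which check the tissue label, summed to 122661 to 175627 CPM in Tg libraries, against 132430 to 206408 CPM in WT libraries (medians 137041 in Tg and 176834 in WT), with 1 of 7 called higher and 2 lower. The 6 adipocyte markers summed to 29.8 to 878 CPM in Tg libraries, against 25.9 to 1976 CPM in WT libraries (medians 438 in Tg and 275 in WT), with none called, and 3 WT libraries (WT female 1, WT female 2 and WT male 1) exceeded 3 times the median of all libraries. No marker was called among 5 of macrophages (20.2 to 99.6 CPM in Tg, 35.9 to 123 CPM in WT, medians 44.6 in Tg and 68.8 in WT), 4 of endothelium (201 to 254 CPM in Tg, 172 to 254 CPM in WT, medians 236 in Tg and 219 in WT), 4 of fibroblasts (335 to 1036 CPM in Tg, 499 to 982 CPM in WT, medians 689.8 in Tg and 773 in WT) and 4 of Schwann cells (58.6 to 87.4 CPM in Tg, 50.96 to 121 CPM in WT, medians 73.4 in Tg and 61.99 in WT). Of 5 erythrocyte markers 1 was higher (69.0 to 139 CPM in Tg, 60.2 to 111 CPM in WT, medians 98.2 in Tg and 78.9 in WT), and of 3 satellite cell markers 1 was higher and 1 lower (25.4 to 37.9 CPM in Tg, 26.7 to 38.7 CPM in WT, medians 33.7 in Tg and 33.3 in WT). The neutrophil markers (0.466 to 1.68 CPM in Tg, 0.11 to 0.802 CPM in WT, medians 0.648 in Tg and 0.472 in WT) had 1 tested gene, called higher, and no lymphocyte marker had enough counts (0.0724 to 0.652 CPM in Tg, 0.11 to 0.694 CPM in WT, medians 0.271 in Tg and 0.237 in WT). The part of the fibre and macrophage markers in the results above was not tested.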

How the data were processed

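The authors deposited 1 table per library, which was read as estimated counts of reads per gene for 19108 gene symbols, not scaled to a common total. The unit is not named, and it was inferred because totals differ between libraries and 95.02% of nonzero values lie within 0.01 of a whole number. Per the submitters' processing notes, bcl2fastq, cutadapt 1.2.1, TopHat2, Bowtie2 and build mm10 were used. How reads were counted, and whether by strand, is not given in the sources used here. Libraries were stranded, poly(A)-selected and paired-end, per the labels' protocols.

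Values were rounded, moving none by more than 0.5. In R 4.3.3, edgeR 4.0.16 was used with TMM factors (0.887 to 1.1), filterByExpr (minimum count 10, minimum total 15) and a robust quasi-likelihood fit of 1 mean per group to all 16 libraries. The biological coefficient of variation was 0.201. The script was tested on simulated data. Adjusted p values come from edgeR unless another test is named. Pair ratios used a pseudocount of 0.5. Positions came from GENCODE M21, and near-identical transcripts were found with minimap2. Alternatives used DESeq2 1.42.0, limma 3.58.1, other factors and filters, an adipocyte covariate, and fewer libraries.

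No library looked like a repeat of another: over the 24 pairs within groups, the median chi-square of the genes was at least 1.22, where sampling alone gives 0.455. The labels give 4 animals per sex and genotype, and replicate numbers follow accession order. The genes and lists were chosen with earlier results of these data known. Up to 14 called genes with the smallest adjusted p, and the most abundant gene per kilobase of each complex, were chosen for fuller values. These are values of every library for some, and the lowest, median and highest of each genotype for the others. From each other list up to 4 called genes are named. Tomm22, Dnaja1 and Uqcrh were named in addition after their values were seen. The changes of Immp2l, Grpel1, Grpel2, Ubqln1 and Ubqln4 were likewise added after they were seen.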

Additional observations from a re-analysis of the deposited data

Results flagged for a closer look

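Within groups of 4 libraries, a library was singled out where its gap to the nearest other took up more of the group's range than Dixon's 95% critical value allows. This held in 11 of the 136 groups screened over the 34 genes (8.09%), where chance gives about 1 in 20.

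Tg male 2 was singled out for 3 genes. It had the highest Tg male value of Gfer, at 36.2 CPM with the other Tg males at 27.6 to 28.6 CPM, and of Timm8b, at 62.2 CPM against 50.3 to 51.4 CPM. It had the lowest value of Chchd4, at 13.5 CPM against 16.3 to 16.6 CPM.

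In Tg females, Chchd4 was lowest in Tg female 2, at 13.7 CPM against 15.95 to 16.0 CPM, and Timm44 was highest in Tg female 1, at 66.8 CPM against 64.1 to 64.6 CPM. Among Tg males, Timm23 was lowest in Tg male 3, at 190.1 CPM against 202 to 204 CPM.

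In WT females, WT female 3 was lowest for Timm10, at 8.65 CPM against 12.1 to 12.3 CPM, and for Dnajc15, at 36.9 CPM against 44.5 to 45.5 CPM. WT female 4 was highest for Timm17b, at 23.9 CPM against 20.2 to 20.3 CPM, and for Tomm34, at 16.4 CPM against 12.5 to 13.2 CPM. Among WT males, Pmpca was lowest in WT male 1, at 173 CPM against 203 to 205 CPM.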

How the results depend on the processing

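The count of 15 called genes in the averaged contrast stayed between 12 and 17 under every alternative run, with 13 to 17 when each library was left out in turn, and the median log2 fold change between 0.064 and 0.14. With Tg male 2 and WT female 3 both left out, an alternative chosen after seeing the data, 16 genes were called and the median was 0.064. In females the count ranged from 5 to 11 when each library was left out and in males from 5 to 10, of which the cause was not tested. The test of the difference between the sexes called 0 import genes throughout. Gfer and Tomm22 lost their calls most often, Tomm34 lost it without the adipocyte-rich libraries, and the other 12 called genes kept theirs under all 25 alternatives. Pmpca ranged from -0.059 to 0.019 when each library was left out, with a sign change to 0.0025 without Tg female 4 and to 0.019 without WT female 4, and was -0.14 without the adipocyte-rich libraries, never called. The Dnajc15 to Dnajc19 difference was -0.13 without the adipocyte-rich libraries and no longer passed, of which the cause was not tested. The Mtx1 to Mtx3 difference ranged from -0.24 to -0.078 when each library was left out. It and the other pair differences kept their direction and side of the threshold. Low counts of Timm8a2 and Tomm6os limit what can be said of them. No paired analysis was possible because replicate numbers follow accession order and the labels link no Tg mouse to a WT mouse.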

Other observations

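For the chaperone rings of the intermembrane space, the ratio of partner transcripts was looked at after the values were seen, so no test is given. Timm10 relative to Timm9 had a log2 ratio of counts of 0.38 ± 0.21 in Tg and -0.19 ± 0.27 in WT libraries (SD, n = 8 each). The median was 0.34 in Tg and -0.14 in WT libraries. Timm8a1 relative to Timm13 had -1.51 ± 0.41 in Tg and -2.17 ± 0.24 in WT libraries, with medians of -1.37 in Tg and -2.26 in WT. Tg male 2, at -2.45, lay below every WT library, the lowest of which was at -2.42. In these pairs Timm10 and Timm8a1 were called higher in Tg muscle, while Timm9 and Timm13 did not pass the test. Timm8b, the other Timm8 form, was called lower at -0.21 and is not part of these ratios.

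Some libraries lay at the end of their group for many import genes at once. WT female 3 was the lowest of its group for 20 of the 34 genes and WT female 4 the highest for 22. Tg male 1 was the highest of its group for 20. Tg male 2 was at an end for 24, as the highest for 10 and the lowest for 14.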
